A study of Mus musculus with 8 samples.

Results

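The H2 genes are the mouse genes of the major histocompatibility complex (MHC) whose symbols begin with H2 and a hyphen. The RefSeq gene table of GRCm38.p6 held 38 such protein-coding genes among 21900 protein-coding genes. Of these, 35 had a position on chromosome 17, between 33996012 and 37483554, among 21774 protein-coding genes placed on a chromosome. H2-Q8, H2-Q9 and H2-T18 carried positions of another scaffold in that table and were not analysed here. The 35 genes comprised 25 class I genes, 9 class II genes and H2-Ke6, an enzyme gene named for its place in the region that belongs to neither class. The class I genes were the classical H2-K1 and H2-D1, 6 genes of the Q series, 5 of the T series and 12 of the M series. The class II genes were 4 genes for surface chains and 5 for chains that work inside the cell on peptide loading.

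The study mapped trimethylation of histone H3 at lysine 36 (H3K36me3) by chromatin immunoprecipitation and sequencing. The KO group was bone marrow stromal cells of Setd2 fl/fl mice given a lentivirus for Cre, the recombinase that cuts out floxed DNA, and the WT group was the same cells given a GFP lentivirus. All cells were of the C57BL/6J strain at passage 2, carried the floxed allele, and were kept in puromycin at 2 µg/ml for 4 days before fixation. Each genotype had 2 H3K36me3 libraries, 1 Input library (chromatin without antibody) and 1 IgG library (a non-specific antibody), and nothing in the labels says whether the pair came from separate cultures or animals. The p-values below therefore measure only the spread between these libraries, which may be technical. Cre came with the virus and not from a cell type promoter, and the share of cells in which Setd2 was deleted was not measured in the lists. A cell mixture in which fewer cells carry the mark and one in which every cell carries less of it cannot be told apart in such libraries.

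Class I molecules sit on nearly all nucleated cells and present peptides cut by the proteasome, pumped into the endoplasmic reticulum by the Tap1 and Tap2 transporter and loaded with the help of Tapbp and the light chain B2m. Class II molecules are made mainly by B cells, dendritic cells and macrophages, where the invariant chain Cd74 and the H2-DM and H2-O proteins steer their loading. Nlrc5 is the coactivator of class I genes and Ciita that of class II genes, and interferon raises both classes. H3K36me3 is laid down by Setd2, which travels with elongating RNA polymerase II, so the mark lies over the bodies of transcribed genes and is densest toward their ends.

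The measure throughout is coverage, the percent of a gene's span that lay under the authors' H3K36me3 peaks in one library. The values are for peaks called against Input unless IgG is named, and differences are KO minus WT in percentage points. The lists held 122589 and 159459 peaks in KO libraries, against 242745 and 246258 in WT libraries, and the peaks covered 71.7 and 94.4 Mb in KO libraries, against 243 and 235 Mb in WT libraries. Setd2 itself was covered over 0.690% and 1.70% of its span in KO libraries, against 66.4% and 60.5% in WT libraries (−62.2 points, SE 2.94, limma adjusted p = 0.0003). Over all protein-coding genes 3.18% ± 0.605 of the bases lay under peaks in KO libraries and 19.8% ± 0.485 in WT libraries (SD, n = 2 each). The lists hold no reads, so the depth is unknown and no upper limit of signal can be given where no peak was called. H2 genes are short, with a median span of 4475 bp, and 1 KO peak of mean width (588 bp) amounts to 13.1% of such a span.

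The class I genes as listed had far less of their span under H3K36me3 peaks in KO cells than in WT cells. That direction turned when libraries were scaled to their mean coverage. The class II share of bases differed little between genotypes as listed. It was above that of all protein-coding genes in KO libraries (8.43% beside 3.18%) and below it in WT libraries (9.02% beside 19.8%). Peaks lay over 7 of the 9 class II genes in each KO library and over 3 in each WT library. Peaks lay over 6.98% and 6.20% of all class I bases in KO libraries, against 32.4% and 27.3% in WT libraries. For class II the shares were 7.62% and 9.24% in KO libraries, against 9.23% and 8.80% in WT libraries. Thus the class I shares did not overlap between genotypes and the class II shares did. The class I difference was −23.3 points, against 12.8 points when each library was scaled to its own mean coverage over all protein-coding genes. Scaling raises KO values and lowers WT values, so scaled values are relative, are no longer percent of span and can exceed the full span. Within class I the scaled difference of the classical genes stayed negative (−37.6 points), and those of the Q, T and M series turned (35.9, 18.4 and 3.66 points). The classical genes were at 0% in both KO libraries, which scaling leaves at 0%, so their sign could not turn. The class II difference was −0.591 points, and it was 32.1 points after that scaling, 1.33 points against IgG and 0.220 points without KO replicate 1. That scaling also moved the median difference of all genes tested to −16.7 points, against −47.7 points unscaled, and the difference over the bases of all genes to 2.80 points, against −16.6 points unscaled.

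limma was fitted to the 10807 genes whose coverage averaged 10% or more across the 4 libraries, and 15 of the 35 H2 genes passed this filter. Of the 15, 11 were lower in KO libraries at an adjusted p under 0.05, none was higher and 4 did not pass. Among all genes tested 92.6% were lower and 0.555% higher, so the H2 share of 73.3% lower lay below the background. The 0 rises were also 0 at an unadjusted p under 0.05. By class, 9 of 12 tested class I genes and 2 of 3 tested class II genes were lower. The median difference of the tested genes was −44.2 points in class I, −17.1 points in class II and −47.7 points in all genes tested. Scaling each library to its mean coverage left 4 H2 genes lower, namely H2-K1, H2-D1, H2-T22 and H2-M3, and none higher, beside 45.2% lower and 2.42% higher of all genes (1 H2 gene, H2-Ab1, had a positive difference at an unadjusted p under 0.05). The 4 lower genes were at 0% in both KO libraries, which scaling leaves at 0%, so their sign could not turn. Without WT replicate 1 or without WT replicate 2 the count was 6, the same 6 genes in both cases (H2-K1, H2-D1, H2-Q6, H2-T24, H2-T22 and H2-M3), beside 80% and 81.3% of all genes tested. In H2-K1, H2-D1, H2-T22 and H2-M3 the KO pair, the one replicated group left there, was at 0% in both libraries, so its spread was 0 and passing shows nothing about stability.

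**Figure D1:**
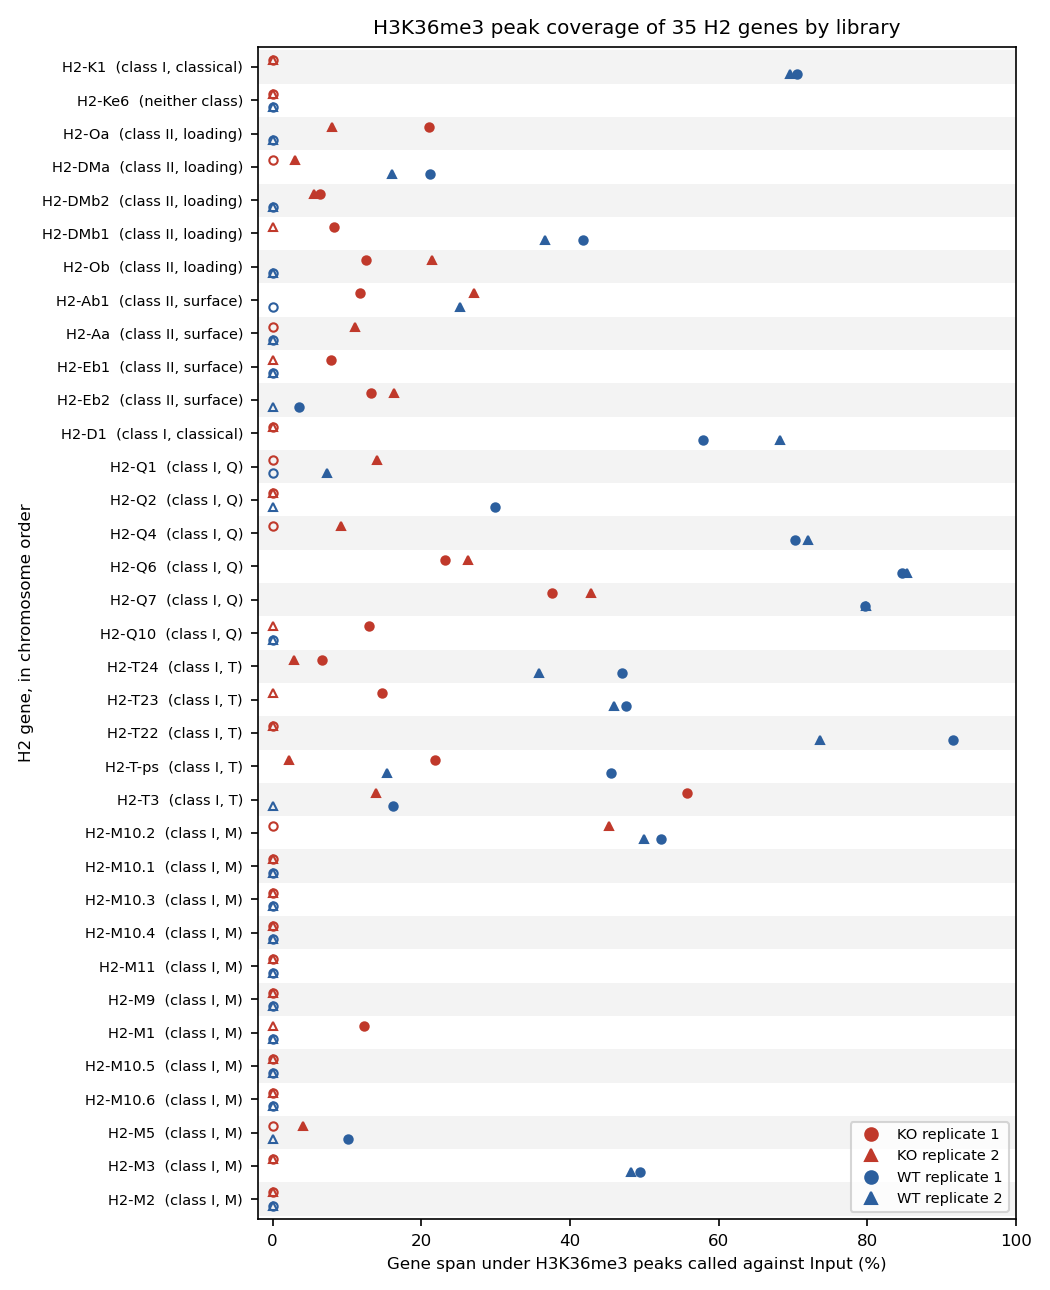
Percent of each H2 gene's span under peaks called against Input (x axis) for the 35 genes in chromosome order (y axis), with KO libraries in red and WT libraries in blue, circles for replicate 1, triangles for replicate 2 and open symbols at 0%. WT points of H2-K1, H2-D1, H2-Q4, H2-Q6, H2-Q7, H2-T22 and H2-M10.2 lie above 50%. Of their KO points only those of H2-Q6 and H2-Q7 and that of KO replicate 2 in H2-M10.2 (45.2%) lie above 20%. After scaling to mean coverage the differences of H2-Q6 and H2-Q7 were positive and did not pass the test.

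H2-K1 and H2-D1, the classical class I genes that present peptides to CD8 T cells, had no peak at all in either KO library. H2-K1 was covered over 0% and 0% of its span in KO libraries, against 70.5% and 69.6% in WT libraries (−70.1 points, SE 1.93, limma adjusted p = 0.0002). H2-D1 was at 0% and 0% in KO libraries, against 57.9% and 68.3% in WT libraries (−63.1 points, SE 4.32, limma adjusted p = 0.0005). For both genes the genotypes were far apart, and each difference was more than 10 times its standard error. In WT libraries the widest peak over H2-K1 measured 2963 and 3101 bp and that over H2-D1 3153 and 2964 bp. Both genes also passed as lower after scaling, but a KO value of 0% stays at 0% there, so the sign could not turn. The promoters of these 2 genes, 300 bases around the start in the RefSeq table of GRCm38.p6, are shown because both genes had WT peaks and no KO peak against Input and share 3 motifs. They lie at chr17:34000298-34000597 on the minus strand (H2-K1) and chr17:35262844-35263143 on the plus strand (H2-D1), each 5′ to 3′ along its gene. Capitals mark, in order, the core of the enhancer A motif bound by NF-kappaB factors, an interferon response motif and a CCAAT motif in forward orientation (CCAATCAG).
H2-K1: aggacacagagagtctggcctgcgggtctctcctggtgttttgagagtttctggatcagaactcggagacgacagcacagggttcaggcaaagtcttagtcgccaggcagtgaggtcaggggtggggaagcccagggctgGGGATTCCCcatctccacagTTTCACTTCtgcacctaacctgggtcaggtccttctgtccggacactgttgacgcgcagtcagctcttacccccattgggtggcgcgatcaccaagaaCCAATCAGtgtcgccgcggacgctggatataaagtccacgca
H2-D1: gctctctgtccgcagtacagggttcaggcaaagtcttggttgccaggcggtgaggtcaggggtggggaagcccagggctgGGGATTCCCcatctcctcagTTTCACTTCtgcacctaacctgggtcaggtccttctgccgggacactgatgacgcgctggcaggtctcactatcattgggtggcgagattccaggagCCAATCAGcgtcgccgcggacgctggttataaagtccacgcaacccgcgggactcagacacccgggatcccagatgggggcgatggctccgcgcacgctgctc

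The 2 promoters were identical at 88.3% of 239 aligned bases. The core of enhancer A (GGGATTCCC, or GGGAATCCC on the other strand) stood in 69 of 17492 promoters of the table (0.394%), among them 4 of 23 class I promoters (H2-K1, H2-D1, H2-Q6 and H2-Q7) and 0 of 8 class II promoters. The interferon motif (TTTCNNTTC, or GAANNGAAA) stood in 8 of 23 class I promoters, 0 of 8 class II promoters and 7.03% of all promoters. The CCAAT motif, counted in either orientation (CTGATTGG, inverted, or CCAATCAG, forward), stood in 14 of 23 class I promoters, 4 of 8 class II promoters and 5.14% of all. The 3 motifs did not overlap in H2-K1 or H2-D1. A match is a run of letters and does not show a bound site, and some class I promoters are near copies of one another, so their matches are not independent. H2-Q6 and H2-Q7 hold the 3 motifs as well and had peaks in both KO libraries. A link between motifs and coverage was not tested. None of the 10 lower H2 genes with a promoter entry had a peak base in its promoter in any of the 4 libraries. Of all genes tested, 1.32% and 1.25% had one in KO libraries, against 3.96% and 3.72% in WT libraries.

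Against IgG the picture of the classical genes was different, since H2-K1 had no peak in any of the 4 lists. H2-D1 was at 0% and 0% in KO libraries, against 57.9% and 0% in WT libraries, and did not pass the test there (−28.9 points, SE 22.5, limma adjusted p = 0.285). Against Input, 4880 genes had 50% or more of their span covered in each WT library, and of these 58 (1.19%) had no peak in either WT list against IgG, and H2-K1 was 1 of 7 such H2 genes and the only one of them without a peak there. B2m, the light chain of class I molecules, was another of the 58. B2m was covered over 0% and 0% in KO libraries, against 77.3% and 66.0% in WT libraries, with Input, and had no peak in the 4 IgG lists. The reads of the IgG libraries were not used here, so their signal over H2-K1 and B2m was not tested. With IgG, 6 of 10 tested H2 genes were lower and none higher, beside 91.4% lower and 0.218% higher of all genes tested (0 H2 rises at an unadjusted p under 0.05). These 6 were H2-Q4, H2-Q6, H2-T23, H2-T22, H2-M3 and H2-DMb1, all lower against Input as well.

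**Figure D2:**
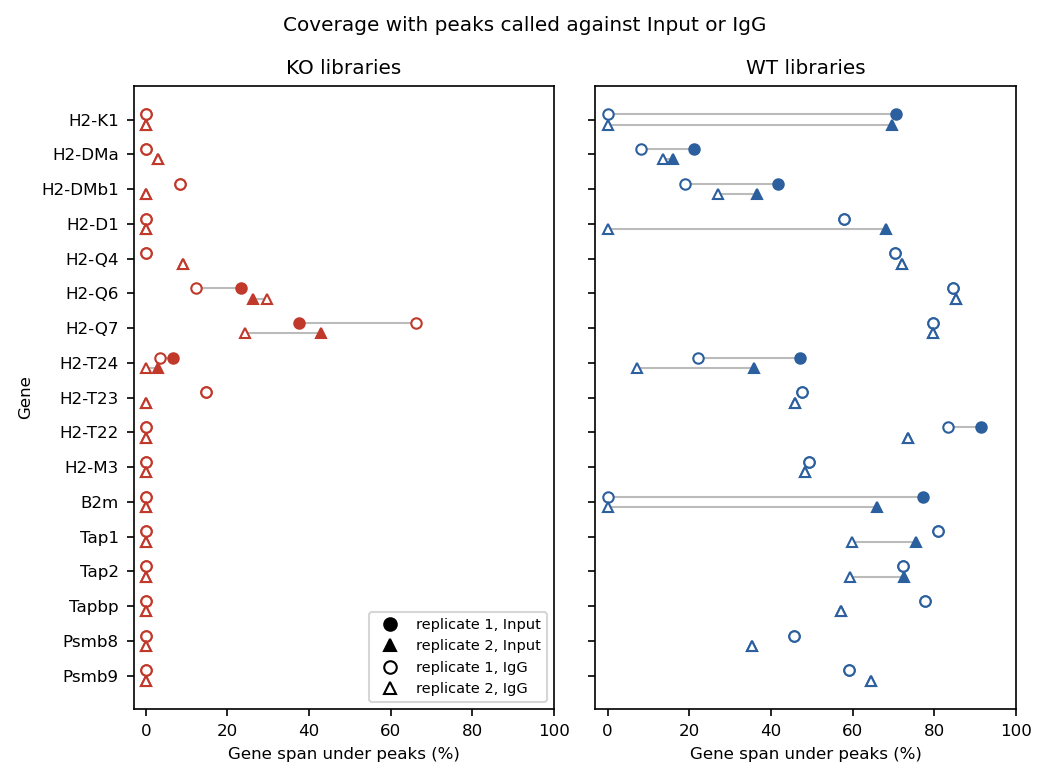
Percent of the gene span under peaks (x axis) called against Input (filled symbols) and against IgG (open symbols, drawn over the filled one where both are equal), joined by a grey line per library, for the 11 H2 genes called lower and 6 genes of class I loading (y axis), KO libraries left and WT libraries right. The WT lines of H2-K1 and B2m run from about 70% to 0% in both replicates, whereas those of H2-Q4, H2-Q6 and H2-Q7 have no length.

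The Q genes encode class I-like molecules, of which those of H2-Q6 and H2-Q7 belong to the Qa-2 antigens that are anchored to the membrane by a lipid. H2-Q4, H2-Q6 and H2-Q7 were the most covered of the series in WT cells, and all 3 passed the test as lower in KO cells. H2-Q4 was covered over 0% and 9.21% in KO libraries, against 70.3% and 72.0% in WT libraries (−66.6 points, SE 3.97, limma adjusted p = 0.0004). H2-Q6 had 23.2% and 26.2% in KO libraries, against 84.7% and 85.4% in WT libraries (−60.3 points, SE 2.58, limma adjusted p = 0.0002). H2-Q7 had 37.6% and 42.8% in KO libraries, against 79.6% and 79.8% in WT libraries (−39.5 points, SE 3.33, limma adjusted p = 0.0009). In each of the 3 both KO values lay below both WT values, as in 54.6% of all protein-coding genes. Yet H2-Q6 and H2-Q7 kept part of their coverage in both KO libraries. H2-Q7 was the one H2 gene with at least 25% in both KO libraries, a level reached by 69 of 21774 genes. Scaled to mean coverage, the differences were −22.1 points for H2-Q4, 61.7 points for H2-Q6 and 133 points for H2-Q7, none of which passed the test. Scaled values are relative and can exceed the full span. H2-Q4 and H2-Q7 no longer passed without WT replicate 1 (−67.4 and −39.6 points) or without WT replicate 2 (−65.7 and −39.4 points). Against IgG H2-Q7 did not pass either, with 66.1% and 24.4% in KO libraries, against 79.6% and 79.8% in WT libraries (−34.5 points, SE 16.4, limma adjusted p = 0.123). H2-Q1, H2-Q2 and H2-Q10 were below the filter, with 0% to 14.1% in KO libraries and 0% to 30.0% in WT libraries.

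**Figure D3:**
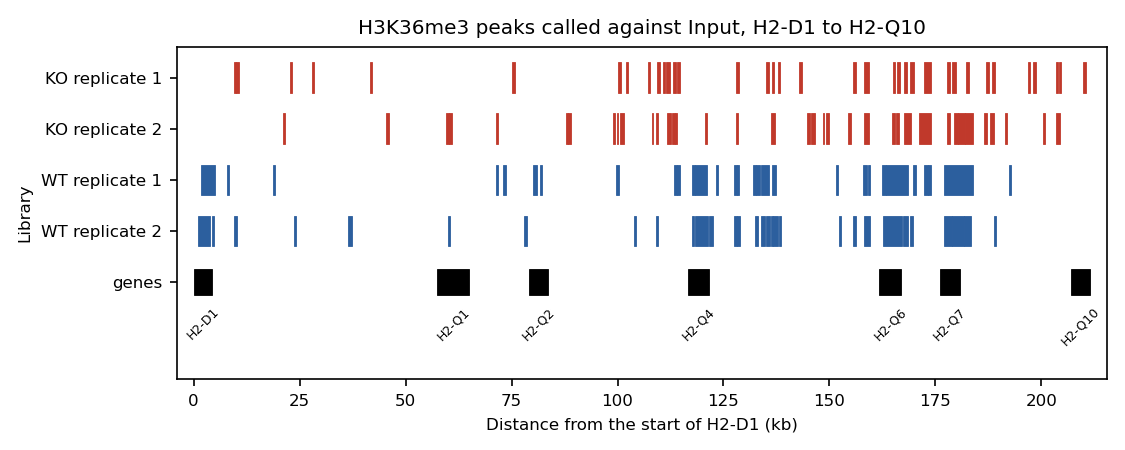
Peaks called against Input (coloured bars, 1 row per library, KO above WT) and gene spans (black, bottom row) along 211 kb, by distance in kb from the start of H2-D1 (x axis). WT peaks fill most of H2-D1, H2-Q4, H2-Q6 and H2-Q7, KO peaks are narrower, and both KO rows have peaks over H2-Q6 and H2-Q7 and none over H2-D1.

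The KO peaks over H2-Q6 and H2-Q7 overlapped in part between the KO libraries and lay inside the WT peaks. Of 4176 bases of these 2 genes covered in either KO library, 2125 (50.9%) were covered in both. In the other class I genes the KO share was 4.22%, and over all protein-coding genes, of which far less was covered in KO libraries, it was 5.11%. Within the pair the KO share was 67.8% for H2-Q6 and 41.1% for H2-Q7. The WT share was 97.7% for H2-Q6 and H2-Q7, 55.2% for the other class I genes and 49.1% for all genes. All KO bases of the pair (100%) lay under a WT peak, in spans of which 83.5% was under one. Against IgG the KO share of the pair was 33.4%. In the class II genes 1389 of 12534 bases covered in either KO library (11.1%) were covered in both against Input. Of those 12534 bases 18.7% lay under a WT peak, beside 39.4% over all genes, in spans of which 13.7% and 26.5% was under one. These shares are given with no test, as the pair was singled out after its values were seen. Counted as peaks, 19 of 51 KO peaks over H2 genes (37.3%) touched a peak of the other KO library, against 55 of 72 WT peaks (76.4%).

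H2-Q6 and H2-Q7 are near copies of each other, and H2-Q8 and H2-Q9, which have no chromosome position in the table used, belong to the same group. The promoters of H2-Q6 (chr17:35424600-35424899) and H2-Q7 (chr17:35438905-35439204), both on the plus strand of GRCm38.p6, are shown for their likeness. Capitals mark bases of the aligned stretch with no identical partner in the other gene.
H2-Q6: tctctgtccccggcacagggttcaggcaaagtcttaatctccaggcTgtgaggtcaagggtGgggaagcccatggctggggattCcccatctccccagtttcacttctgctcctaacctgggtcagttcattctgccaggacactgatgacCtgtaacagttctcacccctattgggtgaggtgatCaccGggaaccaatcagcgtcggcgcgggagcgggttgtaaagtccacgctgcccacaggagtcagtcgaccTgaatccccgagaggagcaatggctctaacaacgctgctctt
H2-Q7: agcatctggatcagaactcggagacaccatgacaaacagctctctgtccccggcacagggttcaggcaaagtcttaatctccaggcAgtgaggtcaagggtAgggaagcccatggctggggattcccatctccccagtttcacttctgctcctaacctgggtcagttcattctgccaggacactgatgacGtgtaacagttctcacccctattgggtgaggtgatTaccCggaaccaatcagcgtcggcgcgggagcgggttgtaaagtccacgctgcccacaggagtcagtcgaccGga

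Over 260 aligned bases 254 were identical (97.7%) and 6 differed, and 1 further base of H2-Q6 had no partner. Both promoters hold the 3 motifs named above. Such copies can share reads or lose them, depending on how reads with several matches were treated, and the sources used here do not give that. The values of H2-Q6 and H2-Q7 are therefore uncertain as values of single genes. The same holds for H2-T23 and H2-T-ps (97.2% of 281 promoter bases identical), H2-M10.3 and H2-M10.5 (95.2%) and H2-M9 and H2-M1 (92.5%). H2-K1 and H2-D1, the next pair of those with peaks in both WT libraries, stood at 88.3%.

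The T genes encode class I-like molecules, of which H2-T23 makes Qa-1, the ligand of inhibitory receptors on natural killer cells. H2-T22 makes a molecule recognised by some gamma delta T cells, and H2-T3 the thymus leukaemia antigen of thymocytes and gut epithelium. H2-T22 was covered over 0% and 0% in KO libraries, against 91.5% and 73.6% in WT libraries, the largest fall of the H2 genes (−82.6 points, SE 6.92, limma adjusted p = 0.0009). H2-T23 had 14.8% and 0% in KO libraries, against 47.5% and 45.9% in WT libraries (−39.3 points, SE 5.88, limma adjusted p = 0.0047). H2-T24 had 6.61% and 2.91% in KO libraries, against 47.0% and 35.9% in WT libraries (−36.7 points, SE 4.75, limma adjusted p = 0.0030). In these 3 genes every WT value lay above every KO value, as the plot of the 35 genes shows. That order held for 54.6% of all protein-coding genes. H2-T23 missed the threshold without WT replicate 1 (−38.5 points) and without WT replicate 2 (−40.1 points), and scaled to mean coverage its difference was 10.7 points. The scaled difference of H2-T24 was −1.08 points and did not pass, and against IgG H2-T24 fell below the filter (−13.0 points).

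H2-T-ps and H2-T3 spread widely within a genotype. H2-T-ps had 21.8% and 2.26% in KO libraries, against 45.6% and 15.4% in WT libraries (−18.5 points, SE 13.5, limma adjusted p = 0.263). H2-T3 had 55.7% and 13.9% in KO libraries, against 16.2% and 0% in WT libraries (26.7 points, SE 16.8, limma adjusted p = 0.205). The genotypes overlapped in both genes, and H2-T3 passed as higher with KO replicate 2 left out (47.6 points). The T series as a whole had 14.2% and 3.65% of its bases under peaks in KO libraries, against 50.2% and 36.5% in WT libraries.

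The M genes are the distant class I-like genes at the far end of the region, and H2-M3 among them presents N-formylated peptides of bacteria and mitochondria. H2-M3 was covered over 0% and 0% in KO libraries, against 49.4% and 48.3% in WT libraries (−48.8 points, SE 1.94, limma adjusted p = 0.0002), with the same values against IgG. The H2-M10 genes and H2-M1 and H2-M9 are known from sensory neurons of the vomeronasal organ. H2-M10.2 had 0% and 45.2% in KO libraries, against 52.3% and 50.0% in WT libraries (−28.5 points, SE 17.0, limma adjusted p = 0.186). KO replicate 1 alone was far below the rest there, and the gene passed as lower without KO replicate 2 (−51.1 points) and with 2 kb added to either side of the span (−34.6 points). This 2.14 kb gene was covered by 2 peaks of at most 580 bp in each of the 3 libraries with peaks. H2-M1 had 12.3% in KO replicate 1 and 0% elsewhere, and H2-M5 had 0% and 4.07% in KO libraries, against 10.1% and 0% in WT libraries. The remaining 8 M genes and H2-Ke6 had no peak in any of the 4 lists against Input.

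Peaks of the lower class I genes covered on average more of the middle and 3′ parts than of the 5′ part, as in genes at large. In the 8 of the 9 genes whose strand was known from the promoter table, the 5′, middle and 3′ parts of equal length were covered over 0%, 11.8% and 16.6% in KO replicate 1 and 0%, 9.09% and 20.3% in KO replicate 2. In WT replicate 1 the parts were covered over 31.8%, 87.5% and 87.5%, and in WT replicate 2 over 27.3%, 83.3% and 92.9%. From the middle to the 3′ part WT replicate 1 thus did not rise. All tested genes of known strand rose there, from 55.9% to 67.7% in WT replicate 1 and from 54.3% to 65.7% in WT replicate 2. The 3′ part was covered more than the 5′ part in all 8 genes in both WT libraries. Among 8813 tested genes of known strand this held for 34.0% and 37.6% of genes in KO libraries and for 87.3% and 87.0% in WT libraries. Of the 8 class I genes, 3 had more in the 3′ part than in the 5′ part in each KO library, the only ones with any KO peak there. H2-K1, H2-D1, H2-T22 and H2-M3 had no KO peak, H2-Q4 none in KO replicate 1 and H2-T23 none in KO replicate 2. None of the 8 genes had a peak base in its 5′ part in a KO library, as was so for 73.6% and 68.3% of the 8813 genes. Where a gene had no KO peak at all this was given in advance, so the count does not show position.

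**Figure D4:**
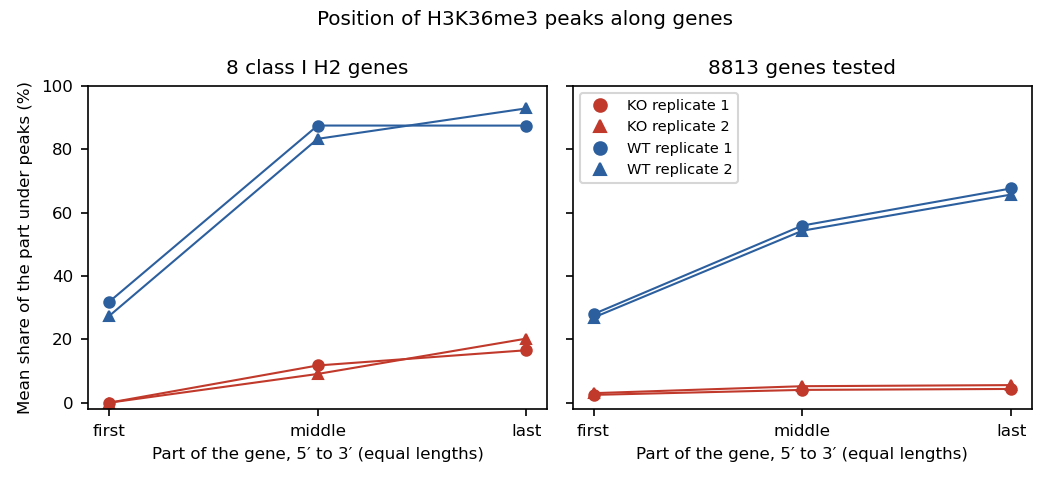
Mean percent of the 5′, middle and 3′ part of a gene (x axis, parts of equal length) under peaks called against Input (y axis), for 8 class I genes called lower (left) and 8813 tested genes of known strand (right), with KO libraries in red and WT libraries in blue. WT lines climb from about 30% to about 90% on the left and to about 67% on the right. On the left the line of WT replicate 1 is level from the middle to the 3′ part. KO lines stay at or below 20.3% on the left and 5.57% on the right.

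Class II surface genes, whose products present peptides to CD4 T cells, had low coverage in WT cells and more in KO cells. Peaks lay over 9.73% and 12.8% of their bases in KO libraries, against 1.49% and 4.12% in WT libraries (8.45 points, and 47.9 points after scaling). The means over all protein-coding genes were 3.18% in KO libraries and 19.8% in WT libraries. H2-Ab1 was the 1 gene of the 4 above the filter, and it did not pass the test. H2-Aa and H2-Ab1 encode the chains of the I-A molecule, and H2-Eb1 and H2-Eb2 beta chains of the I-E type. In RefSeq H2-Ea is a transcribed pseudogene, so I-E at the surface of these cells is not implied. H2-Ab1 had 11.8% and 27.2% in KO libraries, against 0% and 25.3% in WT libraries (6.85 points, SE 11.2, limma adjusted p = 0.583). H2-Aa had 0% and 11.0% in KO libraries, against 0% and 0% in WT libraries, and H2-Eb1 had 7.87% and 0% in KO libraries, against 0% and 0% in WT libraries. H2-Eb2 had 13.3% and 16.4% in KO libraries, against 3.56% and 0% in WT libraries. Of the 4 genes, H2-Eb2 alone had both KO values above both WT values, and it passed as higher with no filter on low coverage or with peaks within 1 kb merged (13.1 points with no filter). The sign for H2-Ab1 turned without KO replicate 2 (−0.832 points) and without WT replicate 1 (−5.79 points). The promoters of H2-Aa (chr17:34287774-34288073, minus strand) and H2-Eb1 (chr17:34305617-34305916, plus strand) are shown against those of the classical class I genes. Capitals mark the inverted CCAAT motif (CTGATTGG, the Y box), the one motif of the 3 found in them, which stands forward (CCAATCAG) in H2-K1 and H2-D1.
H2-Aa: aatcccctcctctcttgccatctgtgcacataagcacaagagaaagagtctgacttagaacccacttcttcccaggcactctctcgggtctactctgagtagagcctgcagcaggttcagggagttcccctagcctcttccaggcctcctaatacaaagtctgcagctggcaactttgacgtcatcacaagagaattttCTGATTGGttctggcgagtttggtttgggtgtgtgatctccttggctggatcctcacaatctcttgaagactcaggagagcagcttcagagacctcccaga
H2-Eb1: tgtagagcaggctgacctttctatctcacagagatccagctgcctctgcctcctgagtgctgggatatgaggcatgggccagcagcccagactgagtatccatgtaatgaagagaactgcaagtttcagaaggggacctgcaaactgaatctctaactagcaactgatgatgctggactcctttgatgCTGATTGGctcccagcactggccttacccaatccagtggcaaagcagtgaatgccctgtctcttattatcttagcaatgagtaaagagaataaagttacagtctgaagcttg

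The class II loading genes split into 2 lower in KO cells and 3 with peaks in KO lists alone, with a difference over their bases of −8.28 points that was 18.7 points after scaling. H2-DMa and H2-DMb1 encode the chains of H2-DM, which exchanges peptides in class II molecules. H2-DMb1 had 8.33% and 0% in KO libraries, against 41.7% and 36.7% in WT libraries (−35.0 points, SE 4.07, limma adjusted p = 0.0022). H2-DMa had 0% and 3.04% in KO libraries, against 21.2% and 16.1% in WT libraries (−17.1 points, SE 3.02, limma adjusted p = 0.0078). Its annotated span shares 3122 bp with Brd2, and on the bases it shares with no other protein-coding gene the difference was −20.4 points. Neither gene overlapped between genotypes, and 54.6% of all protein-coding genes had the same order. H2-DMa missed the threshold without KO replicate 1 (−15.6 points). It fell below the filter without WT replicate 1, without WT replicate 2, at a score of at least 50 and against IgG. Against IgG H2-DMa had 0% and 3.04% in KO libraries, against 8.19% and 13.6% in WT libraries. H2-DMb1 missed the threshold without WT replicate 1 (−32.5 points) and without WT replicate 2 (−37.6 points). Scaled to mean coverage, the differences were −4.53 points for H2-DMa and −1.25 points for H2-DMb1, and neither passed.

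H2-Oa and H2-Ob encode the chains of H2-O, which holds H2-DM back, and H2-DMb2 is a second beta chain gene of H2-DM. H2-Oa had 21.0% and 7.95% in KO libraries, against 0% and 0% in WT libraries, and H2-Ob had 12.6% and 21.5% in KO libraries, against 0% and 0% in WT libraries. H2-DMb2 had 6.33% and 5.53% in KO libraries, against 0% and 0% in WT libraries. With H2-Eb2, these were the 4 H2 genes with both KO values above both WT values (11.4% of 35, near the 10.5% of all genes). All 4 were class II genes, but the order was not particular to class II. It also held for 8 of 134 non-H2 genes that lie between the H2 genes (5.97%), Btnl1 and Btnl2 among them, and for 3 of 5 endothelial marker genes. Conversely 12 of the 35 (34.3%, beside 54.6% of all genes) had both KO values below both WT values. Each of H2-Oa and H2-DMb2 held 1 KO peak per library, with deposited scores of 22.4 to 54.9 on the authors' own scale. All 4 were below the filter. With no filter on low coverage limma placed H2-DMb2, H2-Ob and H2-Eb2 past the threshold as higher (2.69% of all genes then), and against IgG 2 genes, H2-Oa and H2-Eb2, kept both KO values above both WT values (5.71% of 35, beside 7.33% of all genes).

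**Figure D5:**
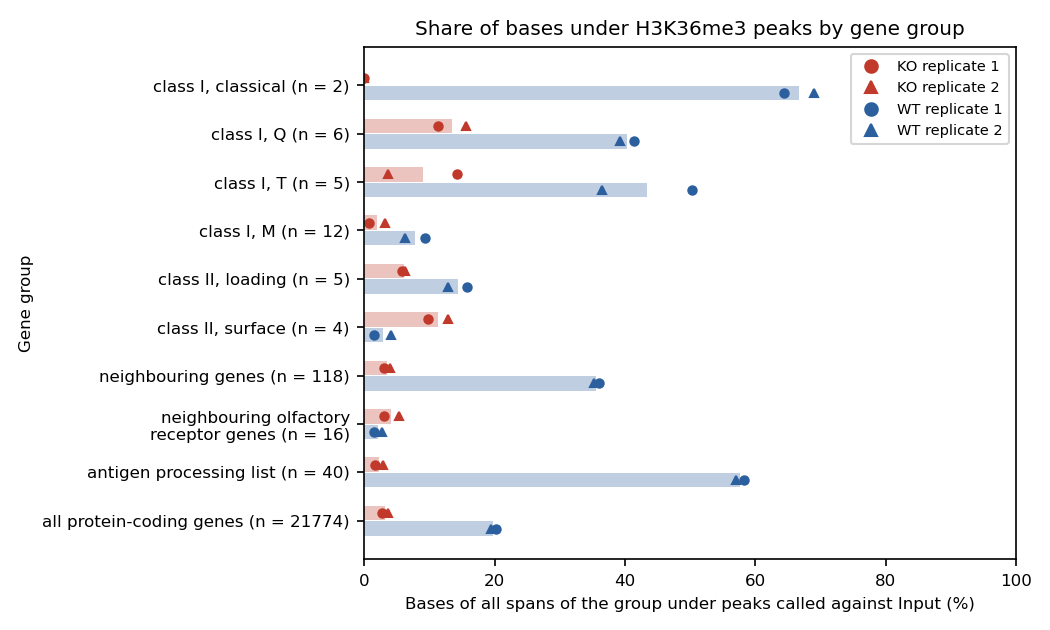
Percent of all bases of each gene group's spans under peaks called against Input (x axis) by gene group (y axis), with bars for the mean of the 2 KO (red) or 2 WT (blue) libraries and points for single libraries. KO bars are shorter than WT bars in every group except class II surface genes and neighbouring olfactory receptor genes. After scaling to mean coverage the difference stayed negative for the classical genes, the antigen processing list and the other neighbouring genes and turned positive for the Q, T and M series, the class II loading genes and all protein-coding genes. The classical genes were at 0% in both KO libraries, which scaling leaves unchanged.

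The wider antigen processing list of 40 genes outside the H2 group had high coverage in WT cells and almost none in KO cells. Of its 39 tested genes 39 were lower and 0 higher, beside 92.6% lower among all genes tested (0 rises at an unadjusted p under 0.05), with a median difference of −61.9 points. Peaks lay over 1.67% and 2.88% of the list's bases in KO libraries, against 58.3% and 57.0% in WT libraries. Tap1, a subunit of the peptide transporter, was at 0% in both KO libraries, against 80.8% and 75.4% in WT libraries, and its partner Tap2 at 0% in both KO libraries, against 72.4% and 72.6% in WT libraries. Tapbp (tapasin) and the immunoproteasome subunits Psmb8 and Psmb9 were likewise at 0% in both KO libraries, against 35.4% to 77.6% in WT libraries. Nlrc5 had 1.18% and 2.90% in KO libraries, against 76.6% and 73.6% in WT libraries (−73.1 points, SE 2.26, limma adjusted p = 0.0002). Cd74 had 0% and 0% in KO libraries, against 43.7% and 34.7% in WT libraries (−39.2 points, SE 3.84, limma adjusted p = 0.0014). Ciita, the class II coactivator, was the one gene of the list below the filter, with 2.29% and 6.62% in KO libraries, against 10.7% and 6.71% in WT libraries. Thus both KO values of Ciita lay below both WT values, by less than 0.1 points at the nearest pair.

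Genes that lie between the H2 genes were covered in part in WT cells and little in KO cells. There were 134 such protein-coding genes, including 16 olfactory receptor genes and, from the list above, Tap1, Tap2, Psmb8 and Psmb9. Of the 134, 40 had no peak in either WT library and 60 were below the filter, beside 5501 and 10967 of all 21774 genes. Of 74 tested, 64 were lower, 1 was higher and 9 did not pass, beside 92.6% lower and 0.555% higher of all genes tested. Peaks lay over 2.99% and 4.02% of their bases in KO libraries, against 34.4% and 33.6% in WT libraries. The 3 largest falls were those of Egfl8 (−94.0 points), Gm7030 (−92.6 points) and Ly6g5b (−90.7 points). Lta, which encodes the cytokine lymphotoxin alpha, was the 1 higher gene, with 45.2% and 29.2% in KO libraries, against 0% and 0% in WT libraries (37.2 points, SE 6.22, limma adjusted p = 0.0066). Against IgG Lta had 45.2% and 0% in KO libraries, against 0% and 0% in WT libraries, and did not pass (limma adjusted p = 0.285).

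The stromal label of the cells was set beside marker genes. Against Input the stromal markers were covered in WT cells, with a summed coverage over 12 genes of 29.6% and 25.8% in KO libraries, against 491% and 459% in WT libraries. Of the 9 tested, 9 were lower, beside 92.6% of all genes tested. Thy1 was at 0% in all 4, and Lepr had 4.02% and 3.66% in KO libraries, against 3.33% and 0.812% in WT libraries. Against IgG the sum was 8.78% and 9.59% in KO libraries, against 195% and 177% in WT libraries, and Col1a1 and Vim had no peak in those 4 lists. The 13 haematopoietic and antigen-presenting markers summed to 29.8% and 78.7% in KO libraries, against 227% and 312% in WT libraries. Of these markers 5 of 6 tested were lower (83.3%), below the 92.6% of all genes tested. Cd14 and Cd79a were at 0% in all 4 lists. The 2 most covered of these markers in WT cells were macrophage genes, with Lyz2 at 0% and 11.4% in KO libraries, against 74.9% and 87.6% in WT libraries, and Cd68 at 0% and 0% in KO libraries, against 37.0% and 71.3% in WT libraries. Against IgG, Lyz2 was at 0% and 11.4% in KO libraries, against 0% and 0% in WT libraries. Among the other myeloid markers, Csf1r had 2.74% and 2.98% in KO libraries, against 45.1% and 43.5% in WT libraries. Against IgG, Csf1r kept 29.2% and 43.5% in WT libraries. Itgam had 4.59% and 3.64% in KO libraries, against 23.9% and 21.7% in WT libraries. Adgre1 had 2.28% and 4.67% in KO libraries, against 18.6% and 17.3% in WT libraries. Itgax was less covered in WT cells, with 7.23% and 5.65% in KO libraries, against 6.37% and 11.9% in WT libraries. The 5 endothelial markers summed to 20.7% and 32.2% in KO libraries, against 22.7% and 10.2% in WT libraries, and none passed the filter. The part of macrophage-lineage cells in the WT peaks over H2-DMa, H2-DMb1, Cd74 and the class I genes was not tested.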

How the data were processed

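H3K36me3 peak lists of 2 KO and 2 WT libraries were used. The submitters' processing notes name Bowtie2 and GRCm38 and no version. The authors deposited 8 lists, 1 per library and control (Input or IgG of the same genotype), per the labels. Both libraries of a genotype thus share their controls. Peak names start with MACS, and the sources used here give no settings. The deposited score is the authors' own, on a scale that is not stated. Depth is unknown, and more reads would give more and wider peaks.

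Coverage was the percent of a RefSeq GRCm38.p6 gene span under peaks on chromosomes 1 to 19, X and Y. The 113 protein-coding rows with positions of another scaffold were left out. Coverage was tested with limma 3.58.1 in R 4.3.3 (lmFit, eBayes with trend and robust options) in genes with a mean of at least 10%, with Benjamini-Hochberg adjustment over all of them and a threshold of 0.05. The step was tested on simulated coverage. With 2 libraries a group an exact permutation test cannot go below 0.333, so none was used. Members, gene lists, the antigen processing list, markers and alternatives were chosen with earlier results of these data known. Genes named were every member with a mean of at least 10% in either genotype (19), fixed members of each class, fixed genes of the antigen processing list, and the 3 neighbours with the largest fall or any that rose. H2-Q1, H2-Q2, H2-Q10, H2-M1, H2-M5, H2-DMb2 and the marker genes singled out were named after their values were seen. Strand and promoters came from the RefSeq promoter table, which held 32 of the 35 genes. Likeness between members was taken from promoters, since no protein table was used here. The motif letters were chosen after the tables were seen. Python 3.11.15, numpy 2.4.6, pandas 2.3.3, biopython 1.88 and matplotlib 3.10.9 were used. Alternatives were IgG lists, a score of at least 50, other filters, scaling to mean coverage, merging of peaks within 1 kb, spans with 2 kb added, a replicate block, leaving out each library, and, added after seeing the data, unshared bases only.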

Additional observations from a re-analysis of the deposited data

How the results depend on the processing

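The 11 H2 genes called lower became 6 against IgG, 7 at a mean of at least 25%, 4 after scaling to mean coverage, and 6 to 12 with 1 library left out. The 0 H2 genes called higher became 3 with no filter, 1 with peaks within 1 kb merged (H2-Eb2), 1 with the replicate block (H2-T3), and 0 to 1 with 1 library left out. Of all genes, 10011 called lower became 5882 at a mean of at least 25% and 4889 after scaling. The 60 called higher became 21 against IgG, 12 at a score of at least 50, 492 with no filter, 18 at a mean of at least 25%, 261 after scaling, 39 with 2 kb added, and 26 to 200 with 1 library left out. Of the neighbouring genes, 64 lower became 38 after scaling. The 1 higher neighbour became 0 against IgG, at a score of at least 50, at a mean of at least 25% and with 2 kb added, 3 with no filter or after scaling, and 0 to 2 with 1 library left out. The class I difference of -23.3 points was -15.5 against IgG and 12.8 after scaling. The class II difference of -0.591 points was 1.33 against IgG, -2.15 at a score of at least 50, 32.1 after scaling, and -1.40 to 0.220 with 1 library left out. The WT share of peaks over H2 genes that touched a peak of the other library, 76.4%, was 56.9% where at least 50% of the peak had to be covered. After scaling the signs turned for H2-Q6 (61.7), H2-Q7 (133), H2-T23 (10.7), H2-T-ps (42.0) and H2-M10.2 (60.0), and H2-Ab1 (6.85) ranged from -5.79 to 19.5 with 1 library left out, turning without KO replicate 2 (-0.832) and without WT replicate 1. The antigen processing counts stayed within 28 to 39 lower and 0 higher, and Setd2 stayed lower throughout. Same-numbered libraries did not deviate together (correlation -0.00333 over 10807 genes), and with the replicate number as a block the H2 count was 12 lower (H2-T-ps added) and 1 higher (H2-T3), beside 9992 and 60 of all genes. Where 1 library was left out, the lone library was assumed to vary like the pair. Apart from fewer genes tested under a stricter filter, the cause of these shifts was not tested. Unknown depth limits all values.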

Other observations

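The RefSeq table also holds 11 H2 rows that are not protein-coding, all pseudogenes. H2-T10, a transcribed pseudogene between the T genes, was the most covered of them, with 0% and 7.53% of its span under peaks in KO libraries, against 82.2% and 82.5% in WT libraries. Against IgG it had 0% and 7.53% in KO libraries, against 39.1% and 81.3% in WT libraries. H2-K2, a transcribed pseudogene next to H2-K1, had 26.1% and 0% in KO libraries, against 51.5% and 37.7% in WT libraries, and no WT peak against IgG. H2-Q5 had 0% and 0% in KO libraries, against 41.0% and 12.3% in WT libraries, with the same values against IgG. H2-Pb, H2-Ea, H2-Q3, H2-Bl and H2-M4-ps had no peak in any of the 8 lists. These rows were not part of the test, and the 8 lists give no reads from which copies of H2 genes could be told apart.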
